A study of Mus musculus with 74 samples.

Results

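The axon guidance genes described here are the ligands and receptors of 4 signalling systems, namely semaphorins with plexins, ephrins with Eph receptors, netrins with Unc5 receptors, and slits. They were chosen by gene name, with earlier results of these data known. The rule took every gene whose symbol begins with Sema, Plxn, Epha, Ephb, Efna, Efnb or Unc5, or with Ntn or Slit and a digit. That gave 60 of the 22079 gene symbols in the tables used, of which 34 are ligands and 24 receptors. The other 2 were caught by the prefix only. Unc50 codes for a protein of the Golgi apparatus, and Plxna4os2 is an antisense RNA, so neither was counted as a ligand or receptor. Unc5cl, named for its similarity to Unc5c, was kept among the Unc5 receptors.

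Guidance ligands steer growing axons by attraction or repulsion, through receptors that reshape the actin skeleton at the tip of the cell. The same molecules act outside the nervous system, where semaphorins and ephrins pattern blood vessels, netrin and slit shape branching epithelia such as the mammary gland, and class 3 semaphorins and plexins are active in the developing lung. Class 3 semaphorins are secreted and mostly bind a neuropilin paired with a plexin, whereas ephrins are tied to the membrane and signal between touching cells.

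RNA was sequenced in bulk from primary mammary tumors (PT) and lung metastases (Lung met) of female mice that carry an oncogene and form tumors without transplantation. In FVB Her2 (genotype MMTV-Her2) the MMTV promoter, active in mammary epithelium, drives the Her2 oncogene neu, and in FVB C3Tag (C3TAg) the C3(1) promoter drives the SV40 large T antigen. The PyMT-F1 models carry the polyoma middle T oncogene under MMTV in the offspring of an FVB father and a mother of another strain (genotypes BALB/NJ x MMTV-PyMT, SEA/GNJ x MMTV-PyMT and AKR/J x MMTV-PyMT). The labels listed 74 samples, which were 7 PTs and 7 Lung mets of C3Tag and 6 of each tissue in the other models. The PTs of a mouse were combined into 1 sample, and Lung mets were taken whole. In Her2 and C3Tag, primary tumors of animals with single lesions were removed by surgery, after which the mice were aged. No age was given in the labels.

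The values are the authors' group means of normalized expression in PT and in Lung met, 1 pair per gene and model. They come without SD, so a difference between PT and Lung met could not be set against the spread between animals, and all ratios below are descriptions without a test. The ratio is the log2 of the Lung met mean over the PT mean, and positive values are higher in Lung met. Each model was normalized on its own, so levels were not compared between models, and the depth of each sample is unknown. Which PTs entered the C3Tag mean was not settled. The strain behind the comparison deposited under AKR is in doubt, so it is given apart under that name and enters no count across models. The Myc model was not analysed here.

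Of the 60 genes, 49 had means in all 5 comparisons. A minimum of 10 for the mean over both tissues left 52 in Her2, 56 in C3Tag, 53 in BALB, 49 in SEAGN and 57 in the comparison deposited under AKR. The genes below that minimum were Efnb3, Sema5b and Slit1 in Her2, Sema5b in C3Tag, Sema5b and Unc5a in BALB, and Efna3, Plxnb3, Unc5a and Plxna4os2 in SEAGN. The remaining absences were genes with no means in a comparison. In Her2 these were Epha5, Ntn3, Sema3e and Unc5a, and in C3Tag Epha5 and Epha7. In BALB they were Ntn3, Sema4f, Slit1 and Slit3, and in SEAGN Epha5, Ephb1, Ntn3, Sema4f, Sema5b, Slit1 and Slit3. The comparison deposited under AKR lacked Sema4f and Sema5b, and Plxna4os2 had means in SEAGN alone.

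A difference of 2-fold or more was found in few of these genes in Her2 and in more of them in C3Tag and the comparison deposited under AKR. In Her2, 2 of 52 were at least 2-fold higher in Lung met (3.85%, against 2.25% of all 17082 genes past the minimum), namely Sema3a and Sema4f. C3Tag had 10 of 56 (17.9%, against 7.52% of all genes), which were Sema3a, Sema3c, Sema3g, Sema4f, Sema6b, Sema7a, Plxna1, Plxna2, Plxna4 and Plxnd1. Every gene in that list belongs to the semaphorin and plexin system. That system held 7 class 3 semaphorins, 12 membrane-bound semaphorins and 9 plexins among the 56. BALB had 3 of 53 (5.66%, against 2.07%), Sema3e, Sema3g and Efna3, and SEAGN 5 of 49 (10.2%, against 2.65%), Sema3a, Sema3c, Sema3e, Sema3g and Plxna4. The comparison deposited under AKR had 10 of 57 (17.5%, against 7.16%), with Sema3a, Sema3c, Sema3d, Sema3e, Sema3g, Sema7a, Slit1, Epha5, Plxna2 and Plxna4.

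Genes at least 2-fold lower in Lung met were fewer than those higher, except in BALB, where both numbered 3. Ephb2 was the 1 gene of 52 in Her2 (1.92%, against 1.42% of all genes). C3Tag had 3 of 56 (5.36%, against 1.61%), which were Slit1, Sema3d and Ephb1. BALB had 3 of 53 (5.66%, against 2.12%), Epha3, Sema3b and Unc5c. SEAGN had 4 of 49 (8.16%, against 2.89%), Sema3b, Sema6c, Efna2 and Efna5. In the comparison deposited under AKR, 2 of 57 were lower (3.51%, against 1.62%), Plxna3 and Sema6c. Sema3b was lower in both BALB and SEAGN, and Sema6c in both SEAGN and the comparison deposited under AKR, while the other lower genes were each lower in 1 comparison. Many of these genes had low means. With a minimum of 50 in place of 10, the genes higher and lower were 1 and 0 in Her2, 0 and 1 in BALB, and 3 and 2 in SEAGN. They were 10 and 2 in C3Tag and 9 and 1 in the comparison deposited under AKR. Each model has its own units, so the same minimum need not mean the same expression level in each. The share of all genes was not computed at that minimum.

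**Figure D1:**
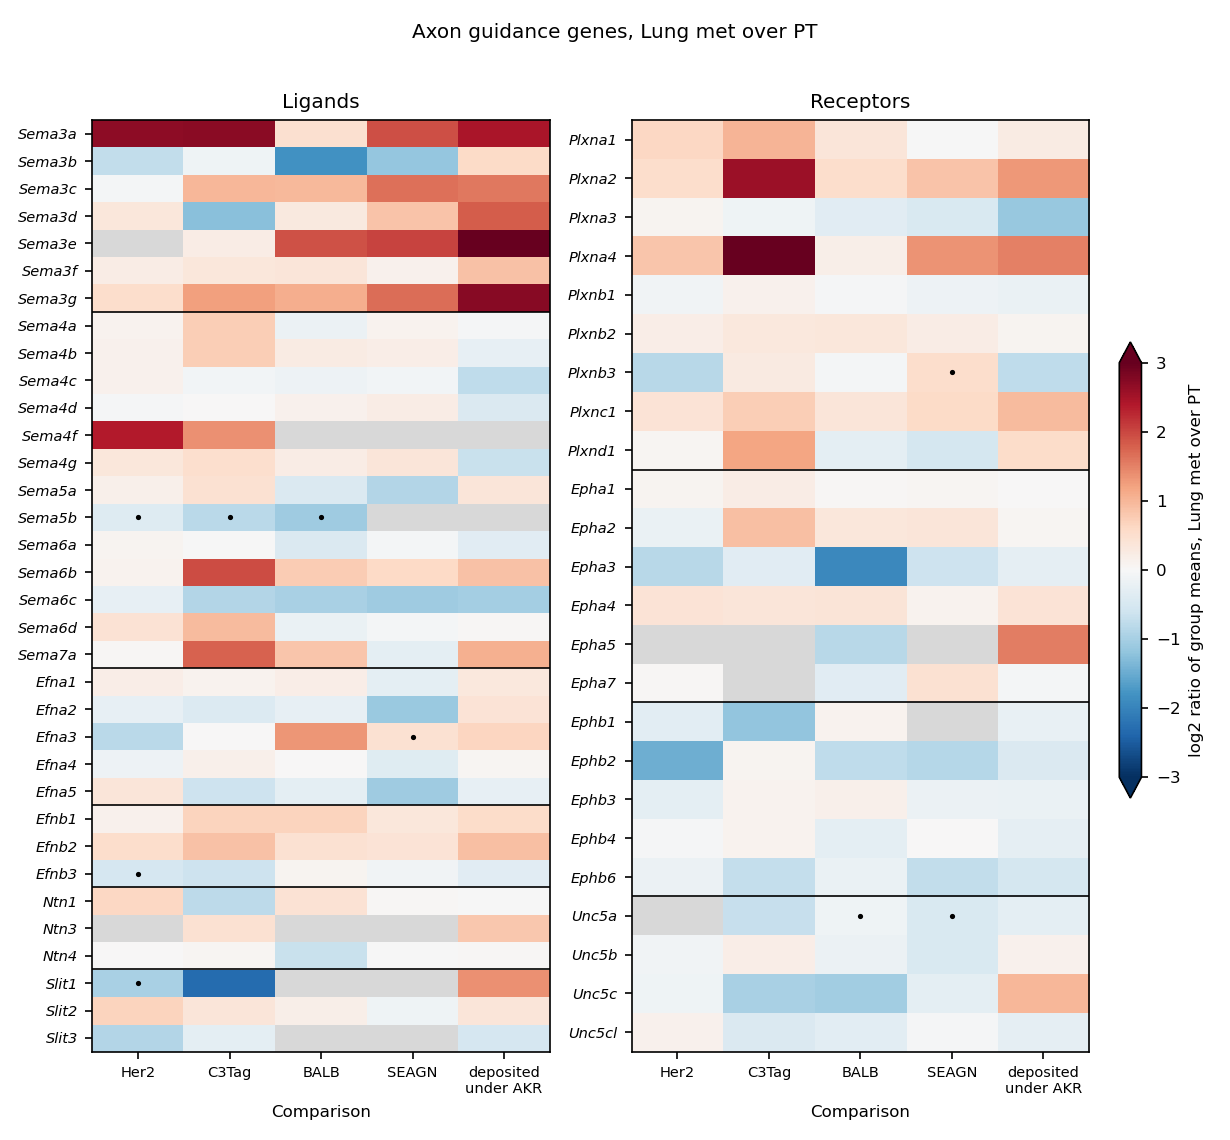
Log2 ratio of the Lung met group mean over the PT group mean for 34 ligands (left) and 24 receptors (right) in 5 comparisons, grouped by family between the black lines; colors saturate at 3, grey marks a gene without means, and a dot marks a mean over both tissues below 10. Red, higher in Lung met, gathers in the class 3 semaphorins at the top left and in Plxna2 and Plxna4.

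Across Her2, C3Tag, BALB and SEAGN, 46 of the genes passed the minimum in all 4 models. None was at least 2-fold higher in all 4, where 0.569% of 11956 genes were, and none was at least 2-fold lower in all 4 (0.125% of all genes) or in 3 or more (0.477%). Sema3a and Sema3g were at least 2-fold higher in 3 of the 4, which made 2 of 46 (4.35%, against 1.12% of all genes). Counted by direction alone, 15 of 46 were higher in Lung met in all 4 models (32.6%, against 17.0% of all genes). These were Efnb1, Efnb2, Epha1, Epha4, Plxna2, Plxna4, Plxnb2, Plxnc1, Sema3a, Sema3f, Sema3g, Sema4b, Sema4g, Sema6b and Unc50. Another 6 were lower in all 4 (13.0%, against 9.07%), namely Efna2, Epha3, Ephb6, Sema3b, Sema6c and Unc5c. Many of these ratios were small, and the size of some of them is given by family below.

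The median over ligands was slightly above that over receptors in each comparison. In Her2 the median log2 ratio was 0.14 over 29 ligands and 0.00 over 22 receptors. C3Tag gave 0.23 over 33 ligands and 0.16 over 22 receptors, BALB 0.19 over 29 and -0.06 over 23, and SEAGN 0.01 over 28 and -0.03 over 20. The median of all genes lay between 0.00 and 0.03 in these 4 models. The difference of the medians, ligands minus receptors, was 0.14 in Her2, 0.07 in C3Tag, 0.25 in BALB and 0.04 in SEAGN, and it was 0.40 in the comparison deposited under AKR, where 32 ligands had a median of 0.37 and 24 receptors one of -0.03. In SEAGN the ligands alone ranged from -1.16 to 2.03, and with a minimum of 50 the difference there turned to -0.00027. With secreted ligands only (class 3 semaphorins, netrins and slits) it was larger in all but C3Tag, at 0.28 in Her2, 0.45 in BALB, 0.52 in SEAGN and 0.90 in the comparison deposited under AKR.

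**Figure D2:**
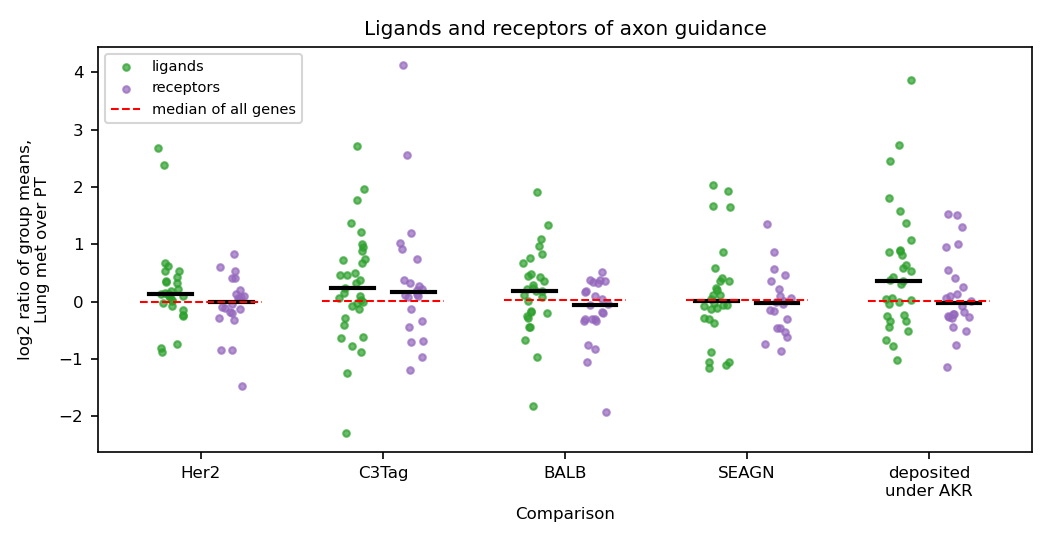
Log2 ratio of Lung met over PT for each ligand (green) and receptor (purple) with a mean of at least 10, in 5 comparisons; black bars are medians and the red dashed line is the median of all genes. Ligand and receptor points overlap throughout, and the highest points are ligands except in C3Tag, where Plxna4 lies at 4.12.

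The class 3 semaphorins were the family with the most genes past 2-fold in BALB, SEAGN and the comparison deposited under AKR, higher and lower together. These 7 secreted ligands had a median log2 ratio of 0.28 over 6 genes in Her2, and over all 7 genes of 0.33 in C3Tag, 0.48 in BALB, 1.66 in SEAGN and 1.81 in the comparison deposited under AKR. At least 2-fold higher were 1 of 6 in Her2, 3 of 7 in C3Tag, 2 of 7 in BALB, 4 of 7 in SEAGN and 5 of 7 in the comparison deposited under AKR. Sema3a, Sema3c, Sema3d and Sema3e all lie on chromosome 5 of the mouse, and Sema3b and Sema3f are near each other on chromosome 9.

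Sema3a, the founding member of the class and a repellent for axons, had the largest ratio of these ligands in Her2 and C3Tag. It lies on chromosome 5 from 13125414 to 13602565 (plus strand, GENCODE M21 on GRCm38, as are all gene positions here). Its mean was 16.3 in PT and 104 in Lung met in Her2, a ratio of 6.39-fold. In C3Tag it was 56.4 in PT and 369 in Lung met, and in SEAGN 21.3 in PT and 81.1 in Lung met. The corresponding log2 ratios were 2.68, 2.71 and 1.93. BALB stood apart, with 20.5 in PT and 28.7 in Lung met and a log2 ratio of 0.48. The comparison deposited under AKR had 43.6 in PT and 239.8 in Lung met (log2 ratio 2.46).

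Sema3g, on chromosome 14 from 31217860 to 31230352, is a class 3 semaphorin that signals through neuropilin-2. It was higher in Lung met by 2.33-fold in C3Tag (174 in PT and 405 in Lung met), by 2.13-fold in BALB (21.2 in PT and 45.2 in Lung met) and by 3.18-fold in SEAGN (21.5 in PT and 68.3 in Lung met). Her2 had a smaller ratio, with 89.4 in PT and 129 in Lung met (log2 ratio 0.53). The comparison deposited under AKR had 44.6 in PT and 298 in Lung met (log2 ratio 2.74). Unlike Sema3a, it was past 2-fold in BALB, and unlike Sema3a it was not past it in Her2.

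Sema3e, on chromosome 5 from 14025276 to 14256689, binds Plxnd1 directly without needing a neuropilin. Its ratio was the highest of all the axon guidance genes in both BALB and SEAGN. The mean was 11.5 in PT and 43.2 in Lung met (log2 ratio 1.91) in BALB and 12.9 in PT and 52.7 in Lung met (log2 ratio 2.03) in SEAGN, both from PT means close to the minimum of 10. C3Tag, at 278 in PT and 326 in Lung met (log2 ratio 0.23), showed a far smaller ratio. In the comparison deposited under AKR Sema3e reached 30.8 in PT and 449 in Lung met (log2 ratio 3.87), the largest ratio of any of these genes there.

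Sema3c, on chromosome 5 from 17574281 to 17730268, guides cells of the neural crest and the vessels of the heart. It had 89.0 in PT and 280.2 in Lung met (log2 ratio 1.66) in SEAGN and 430.4 in PT and 1293 in Lung met (log2 ratio 1.59) in the comparison deposited under AKR. Near the 2-fold line, C3Tag lay just inside with 654 in PT and 1309 in Lung met (log2 ratio 1.00) and BALB just outside with 92.0 in PT and 179.9 in Lung met (log2 ratio 0.97). In Her2 the means were almost equal, 375 in PT and 357 in Lung met.

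Sema3d and Sema3b did not follow the others. Sema3d, on chromosome 5 from 12383385 to 12588948, was lower in Lung met in C3Tag, with 215 in PT and 90.8 in Lung met (log2 ratio -1.24). It was higher in the comparison deposited under AKR, with 68.3 in PT and 240.0 in Lung met (log2 ratio 1.81), and in Her2, BALB and SEAGN its log2 ratios were 0.34, 0.28 and 0.86. Sema3b, on chromosome 9 from 107597674 to 107609229, lies in a region often deleted in human lung cancer and is regarded as a candidate tumor suppressor. It had 633 in PT and 179 in Lung met (log2 ratio -1.82) in BALB and 192 in PT and 85.7 in Lung met (log2 ratio -1.16) in SEAGN. Her2 gave 1580.0 in PT and 947 in Lung met, C3Tag 389 in PT and 356 in Lung met, and the comparison deposited under AKR the opposite direction with 668 in PT and 1003 in Lung met. Sema3f, its neighbor on chromosome 9, had small positive log2 ratios from 0.12 in SEAGN to 0.87 in the comparison deposited under AKR.

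**Figure D3:**
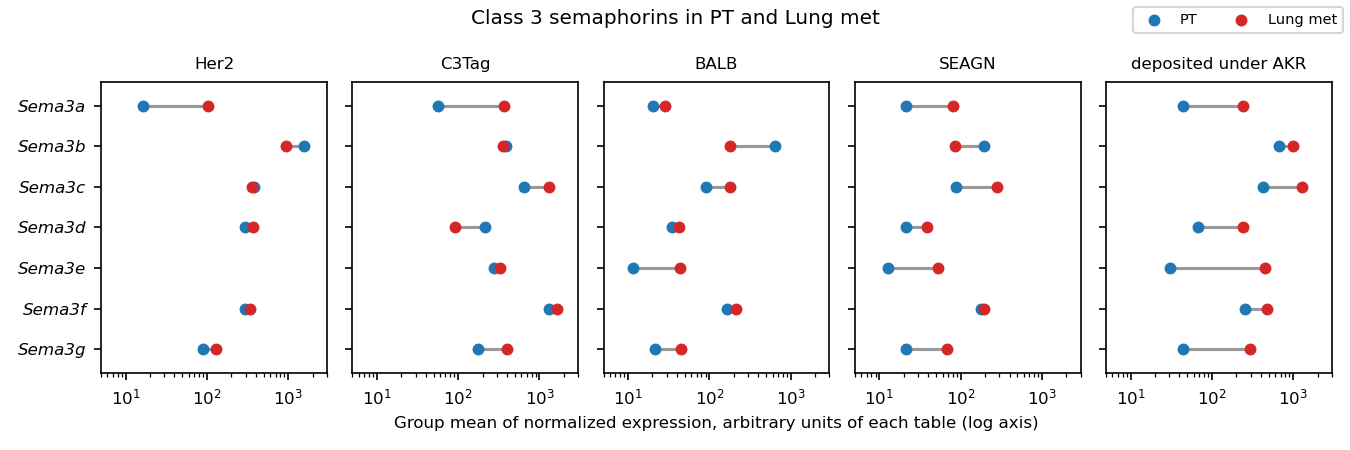
Group means of the 7 class 3 semaphorins in PT (blue) and Lung met (red) for each comparison, on a log axis in the units of that comparison, joined by a grey line. Sema3a and Sema3g lie higher in Lung met in all 5 panels, Sema3b lies lower in all but the one deposited under AKR, and Sema3e has no means in Her2.

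Sema3a, Sema3c, Sema3e and Sema3g were each at least 2-fold higher in 2 or more of the 4 models, and all of them were so in SEAGN. The 250 bases before the RefSeq start (GRCm38.p6) are shown for Sema3a, Sema3e and Sema3g so that the promoters of genes that were higher together can be compared. Sema3c was left out because GENCODE places that window inside an exon. The Sema3g window was kept, although its end at 31217872 lies past the GENCODE start of that gene at 31217860. Capitals mark the GC box, GGGCGG on either strand (CCGCCC on the other), and the TATA motif, TATAAA or TTTATA, was searched as well.
Sema3a, chr5:13396534-13396783, plus strand: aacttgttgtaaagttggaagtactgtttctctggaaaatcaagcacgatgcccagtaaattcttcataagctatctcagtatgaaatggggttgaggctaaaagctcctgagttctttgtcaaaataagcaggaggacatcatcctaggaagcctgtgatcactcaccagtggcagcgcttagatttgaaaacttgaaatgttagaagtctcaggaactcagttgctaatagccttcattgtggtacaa
Sema3e, chr5:14025026-14025275, plus strand: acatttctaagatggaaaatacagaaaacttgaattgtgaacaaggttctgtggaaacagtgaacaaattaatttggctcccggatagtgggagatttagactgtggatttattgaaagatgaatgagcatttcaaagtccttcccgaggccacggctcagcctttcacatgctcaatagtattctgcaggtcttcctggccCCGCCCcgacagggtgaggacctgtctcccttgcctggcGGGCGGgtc
Sema3g, chr14:31217623-31217872, plus strand: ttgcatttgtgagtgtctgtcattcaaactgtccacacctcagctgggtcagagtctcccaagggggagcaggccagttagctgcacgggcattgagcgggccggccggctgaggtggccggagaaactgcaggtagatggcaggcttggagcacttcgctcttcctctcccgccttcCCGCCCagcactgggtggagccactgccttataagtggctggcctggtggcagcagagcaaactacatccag

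The windows held 0 GC boxes in Sema3a, 2 in Sema3e and 1 in Sema3g, and no TATA motif in any of them. Over all 32851 such windows, 32.7% held a GC box and 12.4% a TATA motif. The share of G and C was 40.8% in Sema3a, 48% in Sema3e and 60.4% in Sema3g, against a median of 52.4% over all windows. The RefSeq start used for Sema3a lies well inside the longer gene that GENCODE annotates, so this gene has other starts. These letter matches are a description and show no binding.

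The membrane-bound semaphorins, classes 4 to 7, showed differences mainly in C3Tag, where 3 of 12 were at least 2-fold higher and the median log2 ratio was 0.61. In Her2, BALB and SEAGN the medians were 0.11 over 12 genes, -0.16 over 11 and -0.06 over 11. Sema4f, a class 4 ligand, was higher in both driver models, with 7.06 in PT and 36.8 in Lung met (log2 ratio 2.38) in Her2 and 28.9 in PT and 74.9 in Lung met (log2 ratio 1.38) in C3Tag. The PT mean in Her2 was below 10 and passed only through the Lung met mean. Sema6b, a ligand of the class A plexins, had 96.9 in PT and 376 in Lung met (log2 ratio 1.96) in C3Tag, and log2 ratios of 0.11, 0.75 and 0.59 in Her2, BALB and SEAGN. Sema7a, which is held by a lipid anchor and binds Plxnc1 and integrins, had 567 in PT and 1937 in Lung met (log2 ratio 1.77) in C3Tag but -0.29 in SEAGN.

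Sema6c was lower in Lung met in every comparison, although by 2-fold or more only in SEAGN, with 44.5 in PT and 21.4 in Lung met (log2 ratio -1.06), and in the comparison deposited under AKR, with 50.6 in PT and 24.9 in Lung met (log2 ratio -1.02). C3Tag and BALB fell short of 2-fold, with log2 ratios of -0.88 and -0.96. Sema4c, a ligand of Plxnb2, was among the lowest ligands in the comparison deposited under AKR (821 in PT and 481 in Lung met, log2 ratio -0.77), but was between -0.16 and 0.14 in the 4 other models. Sema4a, Sema4b, Sema4d and Sema6a had log2 ratios within 1 of zero in all 5 comparisons.

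Among receptors, the highest positive ratio was that of a class A plexin in all comparisons except the one deposited under AKR, where Epha5 was slightly higher. Class A plexins pair with neuropilins to receive class 3 semaphorins. Plxna4, on chromosome 6 from 32144268 to 32588192 on the minus strand, had 132 in PT and 2292 in Lung met in C3Tag, a ratio of 17.4-fold and the largest of any of the axon guidance genes in any comparison. SEAGN had 44.2 in PT and 113 in Lung met (log2 ratio 1.36) and Her2 91.8 in PT and 163 in Lung met (log2 ratio 0.83). In BALB the means were close, at 45.7 in PT and 51.7 in Lung met (log2 ratio 0.18), and the comparison deposited under AKR had 29.6 in PT and 84.4 in Lung met (log2 ratio 1.51). The antisense gene Plxna4os2 lies inside Plxna4 on the other strand, from 32451170 to 32454750. Its means in SEAGN were 4.62 in PT and 4.74 in Lung met, and since it is not given whether reads were counted by strand, reads of these genes may not be told apart.

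Plxna2 was higher in Lung met in every comparison. C3Tag again had the largest ratio, with 351 in PT and 2071 in Lung met (log2 ratio 2.56), followed by the comparison deposited under AKR with 86.7 in PT and 214 in Lung met (log2 ratio 1.30). Her2, BALB and SEAGN had log2 ratios of 0.53, 0.52 and 0.86. In C3Tag, Plxna1 (2871 in PT and 5823 in Lung met) and Plxnd1 (1728 in PT and 3956 in Lung met), the receptor of Sema3e, were also past 2-fold, so 4 of 9 plexins were higher there and the family median was 0.75. Plxna3 went the other way in the comparison deposited under AKR, with 1402 in PT and 637 in Lung met (log2 ratio -1.14), and had log2 ratios from -0.46 to 0.08 in the 4 other models. Plxnb1 and Plxnb2, receptors of class 4 semaphorins, had log2 ratios between -0.19 and 0.34 in all 5.

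The neuropilins, coreceptors of class 3 semaphorins that the name rule leaves out, had positive ratios throughout. Nrp1 had log2 ratios of 0.27 in Her2, 1.08 in C3Tag, 0.36 in BALB, 0.68 in SEAGN and 1.63 in the comparison deposited under AKR. For Nrp2 they were 0.39, 0.73, 0.72, 0.49 and 1.13 in the same order. Of the 13 partner receptors and coreceptors looked at beside the rule, 9 passed the minimum in each comparison. The 9 differed by comparison, since Robo3 was counted in C3Tag alone and Timd2 in all but C3Tag. At least 2-fold higher were 1 in Her2 (against 2.25% of all genes), 5 in C3Tag (7.52%) and 0 in BALB (2.07%). SEAGN had 1 (2.65%) and the comparison deposited under AKR 4 (7.16%). At least 2-fold lower were 1 in Her2 (1.42%), 1 in C3Tag (1.61%) and 1 in SEAGN (2.89%). None was lower in BALB (2.12%) or the comparison deposited under AKR (1.62%).

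**Figure D4:**
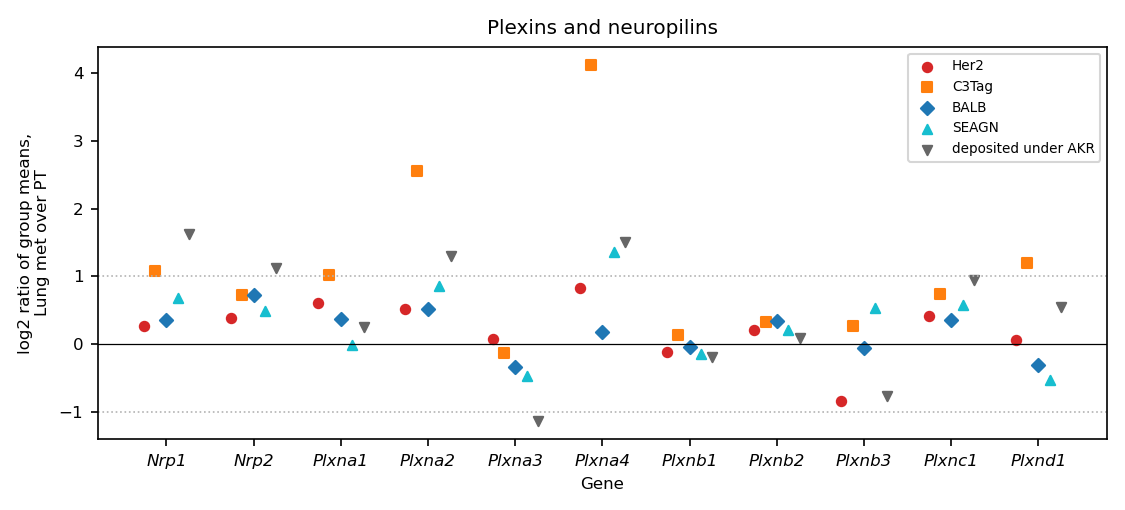
Log2 ratio of Lung met over PT for 2 neuropilins and 9 plexins, with a symbol per comparison and dotted lines at 2-fold; Plxnb3 in SEAGN has a mean over both tissues below 10. Plxna4 and Plxna2 of C3Tag stand above all other points, both neuropilins are above 0 in all 5 comparisons, and Plxnb1 and Plxnb2 stay near 0.

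Ephrins are anchored in the membrane by a lipid (ephrin-A) or by a transmembrane segment (ephrin-B). Ephrin-A genes were uneven: 4 genes in SEAGN had a median log2 ratio of -0.71, while 5 genes had medians of -0.15 in Her2, 0.02 in C3Tag, 0.01 in BALB and 0.31 in the comparison deposited under AKR. In SEAGN, Efna2 (34.9 in PT and 16.1 in Lung met, log2 ratio -1.11) and Efna5 (913 in PT and 439 in Lung met, log2 ratio -1.06) were lower in Lung met. Efna5 also had a lower mean in Lung met in C3Tag, with 5444 in PT and 3524 in Lung met, and a higher one in Her2, with 375 in PT and 482 in Lung met. Efna3 was higher in BALB, with 13.5 in PT and 34.0 in Lung met (log2 ratio 1.33), and had 45.5 in PT and 26.0 in Lung met (log2 ratio -0.80) in Her2.

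The ephrin-B genes Efnb1 and Efnb2 had positive ratios in every comparison, without reaching 2-fold in any. Efnb2, which marks arterial endothelium and helps shape vessels, ranged from 0.41 in SEAGN to 0.90 in the comparison deposited under AKR, and Efnb1 from 0.14 in Her2 to 0.67 in BALB. The third member, Efnb3, had log2 ratios of -0.62 in C3Tag, 0.07 in BALB, -0.11 in SEAGN and -0.33 in the comparison deposited under AKR.

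Eph receptors, tyrosine kinases that bind the ephrins, mostly differed by less than 2-fold. The family median lay between -0.15 and 0.29 for EphA and between -0.46 and 0.09 for EphB. Epha3 was lower in Lung met in all 5 comparisons, and past 2-fold in BALB alone, with 30.8 in PT and 8.11 in Lung met (log2 ratio -1.93). Her2 had 86.2 in PT and 48.2 in Lung met (log2 ratio -0.84). Ephb2 was lower in Her2, with 17.6 in PT and 6.35 in Lung met (log2 ratio -1.48), a pair of low means. It was also lower, by less than 2-fold, in BALB (log2 ratio -0.76), SEAGN (-0.87) and the comparison deposited under AKR. In C3Tag its means were nearly equal, at 449 in PT and 477 in Lung met. Ephb1 was lower in C3Tag, with 96.3 in PT and 42.1 in Lung met (log2 ratio -1.19). Epha5 was higher in the comparison deposited under AKR, with 49.2 in PT and 142 in Lung met (log2 ratio 1.53), against 22.5 in PT and 12.6 in Lung met (log2 ratio -0.83) in BALB. Ephb4, the receptor of Efnb2 on veins, had log2 ratios between -0.30 and 0.11 in all 5.

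Netrins guide through Unc5 receptors and through Dcc, for which no means were analysed. Ntn1 had its highest ratio in Her2, with 1845 in PT and 2826 in Lung met (log2 ratio 0.61), and its lowest in C3Tag, with 5283 in PT and 3078 in Lung met (log2 ratio -0.78), neither past 2-fold. Ntn4, a netrin of basement membranes, had 242 in PT and 152 in Lung met (log2 ratio -0.67) in BALB and log2 ratios within 0.1 of zero in the others. Of the Unc5 receptors, Unc5c was lower in BALB, with 28.5 in PT and 13.7 in Lung met (log2 ratio -1.05), and close to the 2-fold line on either side in C3Tag (1606 in PT and 818 in Lung met, log2 ratio -0.97) and in the comparison deposited under AKR (47.8 in PT and 95.3 in Lung met, log2 ratio 1.00). Unc5b, the netrin receptor of endothelium, lay between -0.45 and 0.20.

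Slits repel axons and other migrating cells through Robo receptors. Slit1 was lower in Lung met in C3Tag, with 45.3 in PT and 9.22 in Lung met (log2 ratio -2.30), and higher in the comparison deposited under AKR, with 20.2 in PT and 52.2 in Lung met (log2 ratio 1.37); like Sema3d it was past 2-fold in opposite directions. Slit2 was measured in all 5 and ranged from -0.12 in SEAGN to 0.67 in Her2, whereas Slit3 was negative in the 3 comparisons with means, lowest in Her2 with 176 in PT and 95.8 in Lung met (log2 ratio -0.87). The Robo receptors lie outside the name rule. Robo2 had log2 ratios of 2.92 in Her2, 1.21 in C3Tag, 0.76 in BALB, 1.73 in SEAGN and 2.65 in the comparison deposited under AKR. Robo1 instead had 102 in PT and 28.0 in Lung met (log2 ratio -1.86) in Her2 and 149 in PT and 59.3 in Lung met (log2 ratio -1.33) in SEAGN, with ratios near 0 in C3Tag and BALB.

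Downstream of these receptors, 25 cytoplasmic effectors were looked at, such as Rac exchange factors, collapsin response mediators and actin-binding proteins. In Her2, 0 of 23 were at least 2-fold higher, against 2.25% of all genes. Higher were 4 of 24 in C3Tag (against 7.52%), 2 of 23 in BALB (2.07%), 1 of 23 in SEAGN (2.65%) and 3 of 23 in the comparison deposited under AKR (7.16%). None was at least 2-fold lower in any of the 5, against 1.42% to 2.89% of all genes. The median log2 ratio was between 0.05 in Her2 and 0.18 in C3Tag. Ablim3, which binds actin, had the largest ratios, with 23.2 in PT and 300.4 in Lung met (log2 ratio 3.69) in C3Tag and 18.0 in PT and 193 in Lung met (log2 ratio 3.42) in the comparison deposited under AKR. Among 9 other guidance ligands, Flrt2, a ligand of Unc5 receptors, was lower in Her2 (-1.01), BALB (-1.22) and SEAGN (-1.76) and had positive log2 ratios in C3Tag (0.47) and the comparison deposited under AKR (0.89).

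Levels of different genes were compared within a model after division by exon length, taken over all GENCODE M21 exons of a gene. The normalization is not given, so whether the means were already scaled by length is unknown. Genes of BALB and SEAGN also carry identifiers of another annotation, so the ranks are approximate. On that scale, in means per kilobase of exon, the receptors Ephb4, Plxnb2 and Epha2 ranked among the 5 highest genes in PT in every comparison, and Ntn1 did so in all but Her2. Ephb4 led in BALB with 340.1 and in SEAGN with 276 per kilobase. Sema3a was at the other end. In PT it ranked 52 of 52 in Her2, 55 of 56 in C3Tag, 51 of 53 in BALB, 47 of 49 in SEAGN and 51 of 57 in the comparison deposited under AKR. In Lung met it ranked 46, 45, 48, 41 and 41 in the same order. Its level per kilobase in Her2 was 1.18 in PT and 7.52 in Lung met, so its large ratio stood on a low level. Sema3e was lowest of all in PT in BALB and SEAGN, at 1.24 and 1.39 per kilobase. Sema3c ranked higher, at 31 of 52 in Her2 and 27 of 56 in C3Tag.

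Markers of other cell types differed between the tissues as well, and in bulk tissue fewer cells of a type and less RNA per cell cannot be told apart. Luminal epithelial markers were abundant in both tissues, with a median log2 ratio between -0.61 in C3Tag and 0.21 in SEAGN. The sum over 5 markers was 97752 in PT and 95280 in Lung met of Her2, and 42322 and 39800 in C3Tag. In C3Tag, Epcam (-0.68), Elf5 (-0.61) and Esr1 (-1.20) were lower in Lung met, while Krt8 (0.64) and Krt18 (0.23) were higher. Basal and myoepithelial markers had medians of 1.12 in Her2, 0.82 in BALB and 0.80 in SEAGN. Their median was -1.09 in C3Tag and -0.35 in the comparison deposited under AKR. Alveolar markers were higher in Lung met. All 4 alveolar type 2 markers with means were at least 2-fold higher in every comparison, with medians from 2.47 in Her2 to 7.06 in C3Tag, and the 6 alveolar type 1 markers had medians from 2.89 in Her2 to 3.92 in the comparison deposited under AKR. Aqp5 was an exception among the latter, with log2 ratios of -0.13 in Her2 and -0.66 in BALB. In BALB and SEAGN several alveolar markers had PT means below 10 and passed the minimum only through the Lung met mean. These were Lamp3 (3.12 in PT of BALB and 3.70 in PT of SEAGN), Sftpd (5.97 and 8.53), Rtkn2 (6.25 and 6.20) and Hopx (6.77 and 6.95). Napsa was such a marker in BALB, at 9.00 in PT.

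Endothelial markers were higher by any amount in 10 of 10 in Her2, C3Tag and the comparison deposited under AKR and in 9 of 10 in BALB and SEAGN. At least 2-fold higher were 4, 7, 3, 3 and 9 of the 10 in Her2, C3Tag, BALB, SEAGN and the comparison deposited under AKR, with median log2 ratios of 0.73, 1.44, 0.71, 0.74 and 1.71. Their summed level was 4048 in PT and 7281 in Lung met of Her2, and 3621 and 11702 in C3Tag. The sum was 1314 and 2293 in BALB, 1428 and 2778 in SEAGN, and 2947 and 10590.2 in the comparison deposited under AKR. The comparisons with most endothelial markers past 2-fold, C3Tag and the one deposited under AKR, also had most axon guidance genes higher, and most of all genes higher (7.52% and 7.16%, against 2.07% to 2.65% in the others). Fibroblast markers were at least 2-fold lower in 6 of 7 in Her2, SEAGN and the comparison deposited under AKR, in 5 of 7 in BALB and in 2 of 7 in C3Tag. In C3Tag their median log2 ratio was -0.06 and 3 of 7 were above 0. Pdgfra went against the list, with positive log2 ratios from 0.44 in SEAGN to 0.94 in the comparison deposited under AKR. A gene with a mean of 0 in either tissue counted as without means, so a marker absent from a tissue could not appear here. The part of alveolar, endothelial and fibroblast RNA in the ratios of the axon guidance genes was not tested.

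**Figure D5:**
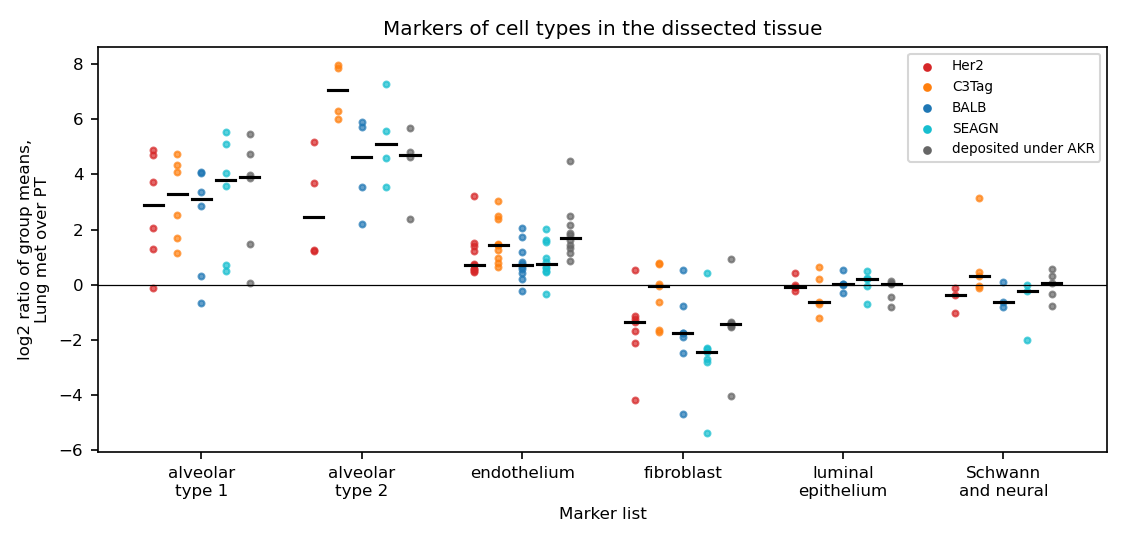
Log2 ratio of Lung met over PT for the markers of 6 cell types with a mean of at least 10, a dot per gene and a color per comparison, with black bars at the median. Alveolar and endothelial markers lie mostly above 0 and fibroblast markers mostly below it. Luminal epithelial markers have medians near 0 except in C3Tag, where the median is -0.61.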

How the data were processed

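Bulk RNA-seq of PT and Lung met from 5 mouse models was analysed. Partek Flow was used by the authors for alignment, gene counting and a normalization whose method is not given in the sources used here. The least-squares means per tissue came from the authors' DESeq2 fits in the PyMT-F1 crosses and from their Gene Specific Analysis in Her2 and C3Tag. The methods name mm9 and mm10, and the submitters' processing notes name mm39 and STAR 2.7.8a. BALB and SEAGN genes carry BALB/cJ identifiers. The labels name a stranded total RNA library with ribosomal depletion and the methods an mRNA library, and this was not settled. Groups were taken from sample titles, and the tissue given in the labels was the same in every sample. Other labels of some PyMT-F1 samples contradict the titles.

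The deposited group means were used as a signal, without SD or n. Whether they are arithmetic means or were formed on a log scale is not given in the sources used here. The p-value, FDR, ratio and fold change of the authors' own comparisons were also in the tables, and none was used. The 1 table that held only p-values and FDR, for Myc, was not analysed. No column held a single sample, so the count model planned for samples was not run. Depth is unknown, and no interval or test was computed.

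The log2 ratio of both means was taken for genes with a mean over both tissues of at least 10. A gene counted as higher or lower at a ratio of 2-fold or more, read against the share of all genes past the same fold. Where a symbol had several rows, the row with the larger mean was used. Genes named with full values were those at least 2-fold in 3 of 4 models or in opposite directions, and the 3 highest and 3 lowest in each comparison. Others were named with their family or chosen after their values were seen. The members, gene lists and markers were chosen with earlier results of these data known. Positions came from GENCODE M21 (GRCm38), matched by symbol for 60 of 60 genes, and promoters from RefSeq (GRCm38.p6). The 2-fold count was tried on simulated group means in which large changes were set in advance. That checked the counting alone and not false calls at the real spread between animals. Software was matplotlib 3.10.9, pandas 2.3.3, numpy 2.4.6 and Python 3.11.15. The alternatives tried were another minimum, a pseudocount, another fold, centring, summed rows, and other sets of ligands or receptors.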

Additional observations from a re-analysis of the deposited data

How the results depend on the processing

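The group means come without SD, so they show no precision and allow no leaving out of a replicate. No paired analysis was possible because no value of a single sample was analysed. Of 102 recomputed values, 79 stayed within 0.1 (log2 medians) or 1.5 times (counts), and 23 moved. The direction turned once, in SEAGN, where ligands minus receptors was 0.04 and became -0.00027 with a minimum of 50. The settings without movement were no minimum, centring on all genes, summed rows, dropping Unc5cl, and counting the comparison deposited under AKR with the others.

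With a minimum of 50 the genes higher and lower were 1 and 0 in Her2, 10 and 2 in C3Tag, 0 and 1 in BALB, and 3 and 2 in SEAGN. In the comparison deposited under AKR, 9 were higher, 1 was lower, and ligands minus receptors was 0.26. A pseudocount of 1 left 1 lower there. At 1.5-fold the genes higher and lower were 6 and 6 in Her2, 17 and 10 in C3Tag, 7 and 7 in BALB, 8 and 8 in SEAGN, and 18 and 5 in the comparison deposited under AKR. With secreted ligands only, ligands minus receptors was 0.28 in Her2, 0.45 in BALB, 0.52 in SEAGN and 0.90 in the comparison deposited under AKR. By construction, a higher minimum removes genes of low mean and a smaller fold adds genes nearer to 1. The share of all genes was not computed at the minimum of 50 or at 1.5-fold, so these counts could not be read against it.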
